A study of Saccharomyces cerevisiae with 24 samples.

Results

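The ATG genes of Saccharomyces cerevisiae, the genes that carry the autophagy name, were followed through a switch from growth in air to growth under nitrogen gas. They were taken as every counted feature whose standard gene name in the R64 annotation is ATG followed by a number, which gave 37 of the 7140 features counted in each library. The name marks a role in autophagy or in a selective form of it, and the choice used no measured value. In autophagy a double membrane grows around a portion of cytoplasm, closes into an autophagosome and fuses with the vacuole, where the contents are broken down and their building blocks are exported. In yeast the pathway is best known from nitrogen starvation, and a constitutive branch, the cytoplasm-to-vacuole targeting (Cvt) pathway, carries hydrolases into the vacuole of growing cells. Selective branches use receptor proteins that tie a cargo such as a mitochondrion, a peroxisome or a stretch of endoplasmic reticulum to the membrane protein Atg8.

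All 24 libraries came from 1 strain, yMH914, an S288C derivative of mating type a (MATa) in which HAP1 was repaired. Its markers are ura3D0, his3D200, leu2D0 and lys2-128d. HAP1 encodes a heme-responsive activator of aerobic genes, and the S288C parent carries a defective copy. Polyadenylated RNA was sequenced in 3 courses with 1 library for each of 8 times, so each time is a group of 3. The times were 0, 5, 10 and 30 min and then 60, 120, 180 and 240 min under nitrogen. Cells grew at 30° in rich glucose medium (YPD), and flasks were sparged with nitrogen from the 0 min sample on. The cells were diluted right after the 0 min sample, so dilution and loss of oxygen cannot be told apart in a comparison with 0 min. The dilution was set so that each flask reached mid-log phase at its own sampling time. The comparison of 240 with 30 min leaves the 0 min sample out, but its flasks can also differ in dilution and time of regrowth. The labels call the courses replicates and do not say whether they were grown on different days, so the p values measure the spread between these courses.

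The counted reads ranged from 4980240 to 16346113 per library with a median of 9536702. The deleted markers URA3, LEU2 and HIS3 reached at most 2, 0 and 2 counts in a library, and of the mating pheromone genes MFA1 had at least 25 counts and MF(ALPHA)1 at most 5, as the labelled genotype and mating type give. DAN1, an anaerobic cell wall gene, had 1921, 3625 and 4408 CPM at 240 min in courses 1, 2 and 3, against 1.51, 8.12 and 22.7 at 0 min. CPM are counts scaled by TMM factors to a common library size, so levels are shares of the mRNA counted, and less of a transcript in every cell and fewer cells carrying it cannot be told apart. Course 1 stood apart from the others. Its libraries differed from those of courses 2 and 3 at the same time far beyond counting noise (163 to 312 for the chi-square divided by its degrees of freedom), more than courses 2 and 3 did from each other (21.5 to 54.2). Results are therefore also given with the course as a block and without each course. Values in single libraries are given in the order of courses 1, 2 and 3.

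The 37 genes lie on 13 of the chromosomes. Only ATG44 and ATG38 contain an intron. Every stretch of 65 bases, the read length of the study, within each gene was unique in the genome as an exact match. Shorter trimmed reads and reads aligned with mismatches were not checked. ATG29 (chrXVI:237338-237979, plus strand) overlaps SET6 on the opposite strand by 24 bases, and the strand setting of the counting is not given in the sources used here. ATG34 (chrXV:165714-166952) and ATG19 (chrXV:168727-169974), which encode related receptors, lie 1774 bases apart on the plus strand.

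The 500 bases before each start codon were searched, on both strands, for 4 short motifs of factors known to control stress, sporulation or nitrogen genes. These were CCCCT, the stress response element of Msn2 and Msn4, GGCGGC, the core of the URS1 element recognised by Ume6, TGACTC, a core of Gcn4 sites, and GATAAG, a site of GATA factors. CCCCT was present before 17 of the 37 ATG genes (45.9%) and before 34.1% of 5986 promoters in the genome. GGCGGC was found before 4 (10.8%) and in 9.56% of all promoters, TGACTC before 8 (21.6%) and in 12.7%, and GATAAG before 14 (37.8%) and in 22.8%. Of the 15 ATG genes that are called over time below, 8 had CCCCT, 3 GGCGGC, 4 TGACTC and 6 GATAAG, and of the other 22 genes 9, 1, 4 and 8 had them. The shares were not compared by a test, and a match of letters is a description of the window, not a bound site. GGCGGC stood before ATG8, ATG42, ATG19 and ATG45. ATG22, the member with the largest change at 240 min, had none of the 4 motifs. Sites are shown for ATG8, ATG42 and ATG19 because only these members had both CCCCT and GGCGGC, and for ATG34 because it is the neighbour of ATG19 and had the largest change of all members. They are read 5′ to 3′ on the strand of the gene from build R64, with the named site, as the motif or its reverse complement, in capitals. ATG8 had 2 CCCCT and 2 GGCGGC sites, and ATG42 had 2 CCCCT sites. The GGCGGC of ATG8 at 130 bases and the CCCCT of ATG42 at 79 bases also lie in the printed stretches and are not marked on their own.
Stress element before ATG8, chrII:80806-80834 (minus strand), 91 bases before the start codon: ggaaatacaaaaAGGGGaaccattaaagg
URS1 core before ATG8, chrII:80847-80876 (minus strand), 133 bases before the start codon: ccggttattttcGGCGGCggcaaaaatatt
Stress element before ATG42, chrII:515566-515594 (plus strand), 86 bases before the start codon: tcgaaaaatgtcAGGGGacaggggttata
URS1 core before ATG42, chrII:515511-515540 (plus strand), 141 bases before the start codon: aaaaatggccgaGGCGGCgctagcattcta
Stress element before ATG19, chrXV:168545-168573 (plus strand), 170 bases before the start codon: atgacccggaaaAGGGGcgtgtgacattg
URS1 core before ATG19, chrXV:168672-168701 (plus strand), 43 bases before the start codon: cgaggtaattgcGGCGGCacttgcttcagt
Stress element before ATG34, chrXV:165515-165543 (plus strand), 187 bases before the start codon: atggcacacgcaCCCCTaaagtaggtggg

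Summed over the 37 genes, ATG transcripts made up a larger share of the counted reads at every time of hypoxia than at 0 min. The mean share was 0.0938 ± 0.0144% of counted reads at 0 min (SD, n = 3 courses here and below), then 0.145 ± 0.0107% after 5 min, 0.174 ± 0.00859% after 10 min and 0.195 ± 0.0225% after 30 min. It stayed between 0.183 ± 0.00491% (180 min) and 0.189 ± 0.0126% (60 min) over the next 3 times, including 0.183 ± 0.0105% after 120 min, and was 0.204 ± 0.00808% at 240 min. In single libraries it was 0.221%, 0.184% and 0.181% at 30 min and 0.213%, 0.197% and 0.202% at 240 min, against 0.1103%, 0.08401% and 0.0871% at 0 min in courses 1, 2 and 3. All 21 libraries under nitrogen had a larger share than any of the 3 libraries at 0 min. The share sums genes of very different level and was not tested. It rests on total counts, and this scaling also moved the median of all genes up, by 0.23 at 30 min and 0.26 at 240 min (log2). In TMM-scaled CPM the sum over the 37 genes was 1094, 1015 and 1071 at 0 min and 1850, 1957 and 1986 at 240 min.

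**Figure D1:**
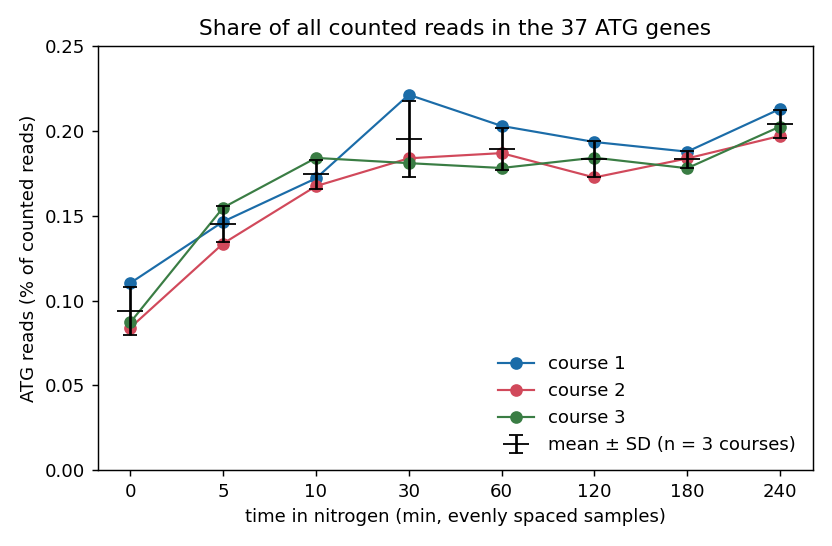
Share of all counted reads that fell in the 37 ATG genes (percent, vertical axis) at the 8 sampled times (min in nitrogen, horizontal axis, evenly spaced), with 1 line for each course and the mean ± SD of 3 courses in black. The share was 0.0938% at 0 min, 0.195% at 30 min and 0.204% at 240 min, and course 1 reached the highest single value at 30 min.

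All 37 genes passed the filter on low counts. A gene was called when the adjusted p of edgeR's quasi-likelihood F-test over 6262 genes was under 0.05 and the fold change was at least 2. The fit held time but no course term, so it ignores the pairing of libraries within a course. Over the whole course 15 of the 37 ATG genes were called and had their largest change upward, and none was called with its largest change downward, beside 9.31% and 10.5% of all genes tested. At an unadjusted p under 0.05, 16 members had an upward and 1 (ATG11) a downward largest change, and DESeq2 called 16 upward (11.5% of all genes) and 0 downward. No share of all genes was counted at an unadjusted p, here or below, so the adjusted shares are no background for those counts. The 15 were ATG22, ATG19, ATG17, ATG4, ATG3, ATG41, ATG9, ATG36, ATG31, ATG34, ATG42, ATG33, ATG20, ATG7 and ATG8. The largest change came at 10 min for 2 of them, at 30 min for 6, at 60 min for 3 and at 240 min for 4. With the course as a block, 25 members were called, of which ATG5 had its largest change downward, and the gained genes besides ATG5 were ATG1, ATG2, ATG14, ATG15, ATG26, ATG29, ATG38, ATG39 and ATG40. Over all genes that fit called 14.2% upward and 15.0% downward. Without course 1, 25 members were called, with ATG5 again the only one downward (18.3% of all genes upward and 16.9% downward). Without course 2 only ATG22 was called (2.33% of all genes upward), and without course 3 only ATG22 and ATG19 were (3.32%). One of the methods that the study used, DESeq2 with time and its square on course 1 alone, called 4 members, all upward, ATG5, ATG22, ATG36 and ATG38, beside 10.5% of all genes.

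Early calls were few in the fit without a course term. At 5 min 2 of the 37 genes were called higher than at 0 min, ATG9 and ATG42, and 0 lower, beside 3.16% and 2.76% of all genes. An unadjusted p under 0.05 was found for 14 members, all higher, and DESeq2 called 4 higher (3.88% of all genes) and 0 lower. The block fit called 6 higher (4.44%), adding ATG14, ATG29, ATG34 and ATG39. The fit without course 1 called 7 higher (7.54%) and 1 lower, ATG5 (5.70%), and the fits without course 2 (0.0158%) or course 3 (0.302%) called 0. The median log2 fold change of the members was 0.52, against -0.05 over all genes. In each of the 3 courses 25 members were higher than at 0 min, beside 20.3% of all genes.

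By 30 min 13 members were called higher than at 0 min and 0 lower, beside 8.29% and 9.55% of all genes. They were ATG4, ATG7 and ATG8 of the Atg8 conjugation system, ATG17, ATG29 and ATG31 of the Atg1 complex, the receptors ATG19, ATG34 and ATG36, and ATG9, ATG22, ATG33 and ATG42. At an unadjusted p under 0.05, 24 members were higher and 0 lower, and DESeq2 called 15 higher (9.26% of all genes) and 0 lower. With the course as a block 17 were called higher (10.5%), adding ATG14, ATG38, ATG39 and ATG40. Without any test, all 3 libraries at 30 min lay above all 3 at 0 min for 22 members, beside 16.2% of all genes. The median log2 fold change was 0.92 over the members and 0.01 over all genes. In each of the 3 courses 30 members were higher, beside 28.2% of all genes. Without course 1 the count was 20 (14.3% of all genes), without course 2 it was 6 (4.32%) and without course 3 it was 9 (4.93%).

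At 120 min 5 members, ATG20, ATG22, ATG34, ATG36 and ATG42, were called higher than at 0 min and 0 lower, beside 5.03% and 5.37% of all genes. An unadjusted p under 0.05 was found for 21 members, all higher, and DESeq2 called 10 higher (5.84% of all genes) and 0 lower. With the course as a block 11 were called higher (6.77%), adding ATG1, ATG8, ATG14, ATG29, ATG38 and ATG39. The count was 17 without course 1 (10.2%), and only ATG22 was called without course 2 (0.918%) or without course 3 (1.99%). The median log2 fold change was 0.72 over the members and -0.03 over all genes.

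At 240 min 15 members were called higher than at 0 min and 0 lower, beside 7.14% and 8.43% of all genes. They were ATG1, ATG4, ATG7, ATG8, ATG9, ATG15, ATG17, ATG20, ATG22, ATG26, ATG29, ATG34, ATG36, ATG38 and ATG42. At an unadjusted p under 0.05, 20 members were higher and 0 lower, and DESeq2 called 15 higher (8.06% of all genes) and 0 lower. With the course as a block 17 were called higher (9.15%), adding ATG14 and ATG16. Without any test, all 3 libraries at 240 min lay above all 3 at 0 min for 22 members, beside 17.3% of all genes. The median log2 fold change was 0.82 over the members and -0.02 over all genes. In each course 28 members were higher, beside 28.7% of all genes. Without course 1 the count was 19 (707 of 5875 genes tested), without course 2 it was 2, ATG9 and ATG22 (2.82%), and without course 3 it was 4, ATG4, ATG17, ATG20 and ATG22 (3.91%). Scaling to the total count in place of TMM moved the median of all genes up by 0.12, 0.23, 0.24 and 0.26 on the log2 scale at 5, 30, 120 and 240 min. Under that scaling the members' medians were 0.66, 1.14, 0.97 and 1.08 at these times.

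Between 240 and 30 min, a comparison without the 0 min sample, 1 member, ATG22, was called higher and 0 lower, beside 3.19% and 3.00% of all genes. An unadjusted p under 0.05 was found for ATG22 and ATG5 (higher at 240 min) and for ATG19, ATG33 and ATG41 (lower at 240 min), and DESeq2 called 1 higher (3.83% of all genes) and 0 lower. ATG22 had 293, 316 and 335 CPM at 240 min and 118, 109 and 165 CPM at 30 min, with no overlap and a log2 fold change of 1.27 ± 0.25 (SE, edgeR adjusted p = 0.00274). The call on ATG22 was lost without course 2 (edgeR adjusted p = 0.221) and without course 3 (adjusted p = 0.0525), where 0.649% and 0.715% of all genes were called higher. With the course as a block (4.71% of all genes) ATG5 was also called higher at 240 min, with an edgeR adjusted p of 0.00299 against 0.212 without the block. Without course 1, ATG22 was called higher (5.07%), and ATG33 and ATG41 lower (6.54%). The median log2 fold change of the members was -0.14, and that of all genes was 0.00.

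**Figure D2:**
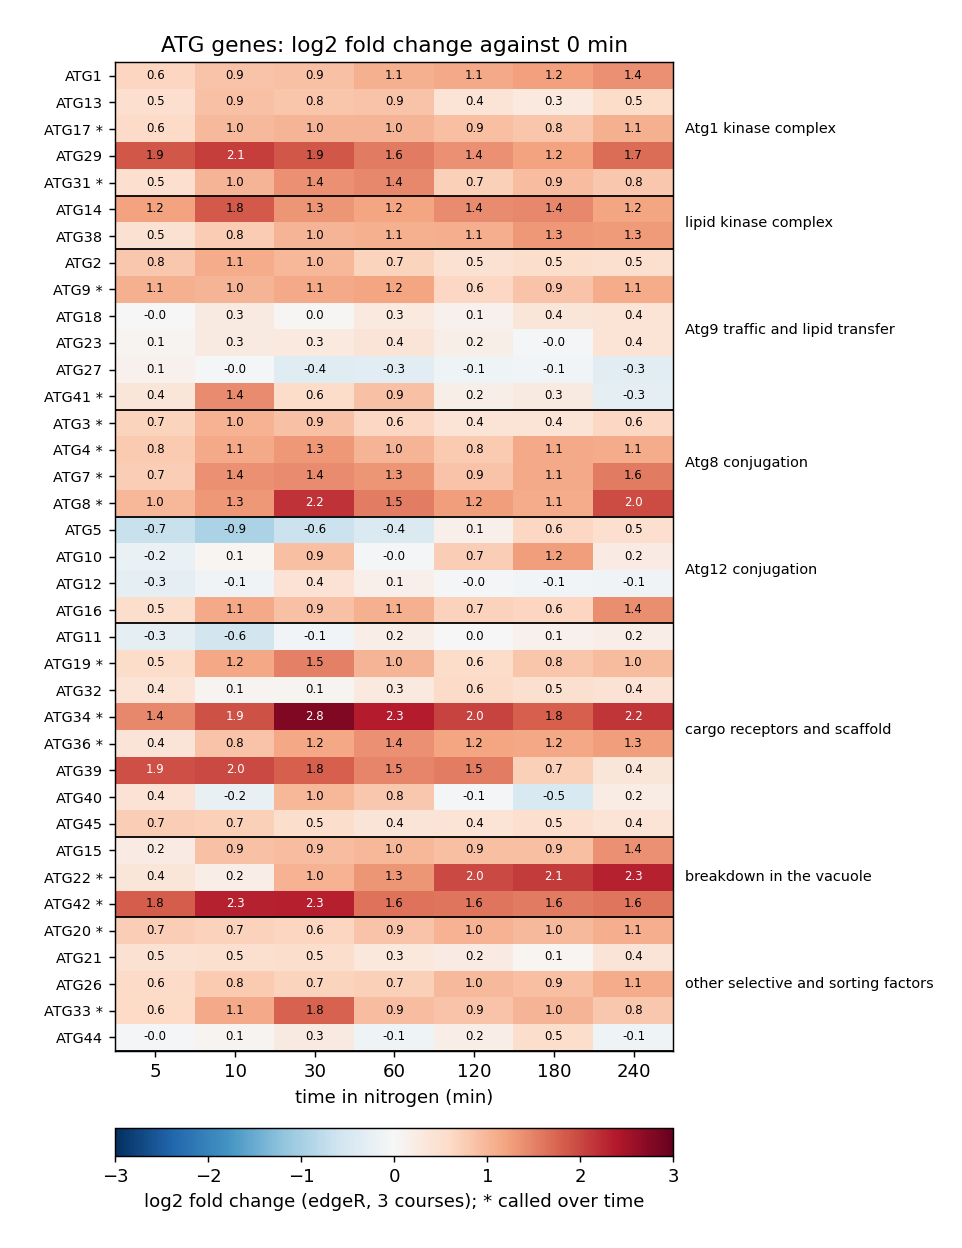
Log2 fold change of each of the 37 ATG genes (rows, grouped by role) at 7 times of hypoxia against 0 min (columns, min in nitrogen), from the edgeR fit over 3 courses, with a colour scale centred on 0 and a star on the 15 genes called over time. ATG34 at 30 min has the highest value (2.78), ATG22 reaches 2.30 at 240 min, and ATG5 at 10 min has the lowest (-0.94).

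The Atg8 conjugation system makes the lipid-linked Atg8 that coats the growing membrane. Each of its 4 genes was called over time with an upward change, beside 9.31% of all genes. ATG8 encodes the ubiquitin-like protein itself, which is attached to phosphatidylethanolamine and binds cargo receptors. It had 6.12, 4.06 and 3.95 CPM at 0 min, 11.2, 8.100 and 9.12 CPM at 5 min, 10.98, 10.2 and 13.5 CPM at 10 min and 32.4, 19.4 and 12.4 CPM at 30 min. Later, it had 23.8, 9.27 and 7.84 CPM at 60 min, 17.1, 8.11 and 8.496 CPM at 120 min, 6.47, 16.1 and 7.96 CPM at 180 min and 24.5, 14.3 and 16.01 CPM at 240 min. Every library under nitrogen lay above the 3 libraries at 0 min, and courses disagreed on the size of the change after 10 min, with course 1 highest at 30 and 60 min. Its log2 fold change was 2.18 ± 0.49 at 30 min against 0 min (SE, edgeR adjusted p = 0.00232) and 1.95 ± 0.49 at 240 min (adjusted p = 0.00606). Over time its edgeR adjusted p was 0.0478, just inside the threshold, and ATG8 was not called over time under total-count scaling or without the filter on low counts. A stress element and a URS1 core from before this gene are printed above.

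ATG4 encodes the protease that trims Atg8 before its conjugation and releases it from membranes. It had 14.9, 12.5 and 20.2 CPM at 0 min, 21.2, 33.6 and 26.9 CPM at 5 min, 28.4, 35.6 and 40.9 CPM at 10 min and 38.9, 39.1 and 39.1 CPM at 30 min. From 60 min on it had 33.2, 29.4 and 33.2 CPM at 60 min, 26.3, 30.5 and 26.00 CPM at 120 min, 34.99, 38.1 and 31.6 CPM at 180 min and 30.5, 40.9 and 32.1 CPM at 240 min. The 3 courses were close together at 30 min and none of the libraries under nitrogen overlapped with those at 0 min. The log2 fold change was 1.30 ± 0.21 at 30 min (SE, edgeR adjusted p = 7.80e-05) and 1.12 ± 0.21 at 240 min (adjusted p = 0.000466). ATG3 encodes the E2-like enzyme that hands Atg8 to the lipid. It had 25.1, 27.00 and 23.1 CPM at 0 min, 36.7, 42.04 and 40.2 CPM at 5 min, 43.3, 49.04 and 62.1 CPM at 10 min and 42.3, 44.03 and 51.5 CPM at 30 min. The later libraries had 33.2, 39.4 and 43.7 CPM at 60 min, 30.6, 39.03 and 29.8 CPM at 120 min, 35.2, 37.6 and 27.4 CPM at 180 min and 36.2, 37.8 and 42.2 CPM at 240 min. Again no library under nitrogen overlapped with 0 min, and the 240 min libraries lay below those of 30 min by a small margin. Its largest log2 fold change was 1.04 ± 0.18 at 10 min, just inside the 2-fold minimum (SE, edgeR adjusted p over time = 0.00398), and at 30 min it was 0.87 ± 0.18.

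ATG7, the E1-like enzyme that activates both Atg8 and Atg12, averaged 24.4 ± 2.204 CPM at 30 min and 27.2 ± 6.62 CPM at 240 min, against 9.15 ± 2.36 CPM at 0 min (SD, n = 3 each). Libraries at 30 and 240 min did not overlap with those at 0 min, and at 180 min course 1 had 9.32 CPM, inside the range at 0 min. Its log2 fold change was 1.41 ± 0.36 at 30 min and 1.57 ± 0.36 at 240 min (SE, edgeR adjusted p = 0.00558 and 0.00301). The calls over time on ATG3, ATG4, ATG7 and ATG8 were all lost without course 2 and without course 3. In those fits, which held no course term, 2.33% and 3.32% of all genes were called upward. All 4 genes were called with the course as a block. At 30 min their log2 fold changes, in the order named, were 0.98, 1.17, 1.33 and 2.16 without course 2. Without course 3 they were 0.78, 1.56, 1.62 and 2.39.

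The second conjugation system joins Atg12 to Atg5 and binds Atg16, and this complex places Atg8 on the membrane. None of its 4 genes was called over time by edgeR or DESeq2, and none had an unadjusted p under 0.05. Over all genes edgeR called 9.31% upward and 10.5% downward. ATG5 had 30.98, 26.8 and 21.4 CPM at 0 min, 29.8, 8.29 and 11.9 CPM at 5 min, 24.05, 8.54 and 8.64 CPM at 10 min and 20.4, 13.3 and 17.3 CPM at 30 min. After 30 min it had 27.5, 16.7 and 14.3 CPM at 60 min, 49.96, 17.5 and 20.04 CPM at 120 min, 58.2, 33.1 and 30.5 CPM at 180 min and 58.7, 26.4 and 27.3 CPM at 240 min. In each course ATG5 was below its own 0 min value at 5, 10, 30 and 60 min and above it at 180 min, and course 1 was high throughout. The largest log2 fold change was -0.94 ± 0.52 at 10 min (SE), and the edgeR adjusted p over time was 0.159 without and 2.32e-05 with the course as a block. ATG5 was called with a downward largest change in the block fit and in the edgeR fit without course 1 (adjusted p = 9.66e-05), and upward in the DESeq2 fit on course 1 alone.

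ATG12, which encodes the second ubiquitin-like protein, averaged 24.8 ± 13.8 CPM at 30 min and 16.98 ± 6.96 CPM at 240 min, against 18.4 ± 8.31 CPM at 0 min (SD, n = 3 each), with overlap at both times. ATG10 encodes the E2-like enzyme for Atg12 and was among the genes of lowest level in courses 2 and 3, at 9.66, 3.01 and 2.503 CPM at 30 min against 4.61, 1.87 and 1.64 CPM at 0 min. ATG16 was nearly missing from course 1, where no library had more than 17.0 counts of it and the mean was 0.7402 CPM, while courses 2 and 3 averaged 15.3 and 13.3 CPM with at least 49.0 counts. At 240 min ATG16 had 0.476, 17.6 and 24.7 CPM, against 0, 7.65 and 8.67 CPM at 0 min. It was called higher at 240 min in the block fit and without course 1, and not in the fit without a block (log2 fold change 1.39 ± 1.71, SE, edgeR adjusted p = 0.676, against 0.0434 with the block).

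The Atg1 kinase complex starts autophagosome formation, and of its 5 genes ATG17 and ATG31 were called over time, beside 9.31% of all genes upward. ATG17 encodes the scaffold that binds Atg29 and Atg31. It had 29.1, 22.5 and 19.9 CPM at 0 min, 40.5, 33.4 and 32.6 CPM at 5 min, 44.03, 50.7 and 44.7 CPM at 10 min and 57.8, 43.2 and 44.5 CPM at 30 min. Later, it had 58.2, 43.9 and 42.8 CPM at 60 min, 48.5, 39.2 and 45.8 CPM at 120 min, 46.2, 38.9 and 41.9 CPM at 180 min and 49.3, 55.3 and 46.3 CPM at 240 min. Each library under nitrogen lay above the 3 libraries at 0 min, and the level changed little after 10 min. On the log2 scale ATG17 changed by 1.02 ± 0.18 at 30 min (SE, edgeR adjusted p = 0.000217) and 1.08 ± 0.18 at 240 min (adjusted p = 0.0001804).

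ATG31 had 22.5, 17.2 and 11.8 CPM at 0 min, 24.3, 24.7 and 23.9 CPM at 5 min, 27.6, 43.6 and 32.6 CPM at 10 min and 43.3, 40.8 and 50.1 CPM at 30 min. From 60 min on it had 42.3, 47.3 and 50.3 CPM at 60 min, 18.7, 32.8 and 32.97 CPM at 120 min, 19.8, 35.8 and 42.6 CPM at 180 min and 28.2, 29.5 and 32.9 CPM at 240 min. Libraries at 5, 10, 30, 60 and 240 min did not overlap with 0 min, and at 120 and 180 min course 1 returned to its 0 min range. Its largest log2 fold change was 1.44 ± 0.28 at 60 min (SE, edgeR adjusted p over time = 0.00803). ATG29, the third partner, averaged 24.7 ± 3.97 CPM at 30 min and 21.7 ± 1.55 CPM at 240 min, against 6.81 ± 1.595 CPM at 0 min (SD, n = 3 each). It was called higher at both times (edgeR adjusted p = 0.0263 and 0.0491) and not over time (adjusted p = 0.261), and was called over time with the block (adjusted p = 0.0133). In course 1 ATG29 stood at 1.33 CPM at 180 min, beside 22.8 and 22.8 CPM in courses 2 and 3. Reads in the 24 bases shared with SET6 cannot be assigned to either gene without the strand.

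ATG1 encodes the kinase. It had 16.95, 24.2 and 26.2 CPM at 0 min, 25.2, 39.9 and 39.5 CPM at 5 min, 22.6, 53.9 and 45.99 CPM at 10 min and 27.6, 44.3 and 51.5 CPM at 30 min. The later libraries had 27.1, 57.1 and 56.8 CPM at 60 min, 24.7, 61.5 and 62.3 CPM at 120 min, 25.5, 68.98 and 62.9 CPM at 180 min and 39.7, 67.99 and 67.1 CPM at 240 min. ATG1 was above its own 0 min value in every course at each time, and courses 2 and 3 ran at about the same level while course 1 stayed lower. It was called at 240 min (log2 fold change 1.38 ± 0.44, SE, edgeR adjusted p = 0.0268) and not over time (adjusted p = 0.334, against 4.49e-05 with the block). ATG13, whose product holds the kinase to the scaffold and is a substrate of TORC1, had 63.8, 68.8 and 66.7 CPM at 0 min, 61.4, 113 and 107 CPM at 5 min, 75.5, 133 and 160.0 CPM at 10 min and 78.3, 139.9 and 134 CPM at 30 min. After 30 min it had 100.3, 136 and 123 CPM at 60 min, 66.1, 99.3 and 100.5 CPM at 120 min, 50.4, 97.2 and 95.3 CPM at 180 min and 78.5, 117 and 96.2 CPM at 240 min. Courses 2 and 3 were close to each other and reached their highest values at 10 and 30 min, whereas course 1 was highest at 60 min and was below its 0 min value at 5 and 180 min. The edgeR adjusted p of ATG13 over time was 0.286, its largest log2 fold change was 0.89 ± 0.31 at 10 min (SE), and the fit without course 1 called it (adjusted p = 0.000114).

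The lipid kinase complex marks the forming membrane with phosphatidylinositol 3-phosphate through its subunits Atg14 and Atg38. Neither gene was called over time by edgeR or DESeq2 or had an unadjusted p under 0.05, and the block fit called both. Of all genes the main edgeR fit called 9.31% upward and the block fit 14.2%. ATG14 averaged 22.2 ± 3.32 CPM at 10 min and 14.02 ± 4.98 CPM at 240 min, against 6.13 ± 3.11 CPM at 0 min (SD, n = 3 each), with an edgeR adjusted p over time of 0.3404 without and 0.00873 with the block. ATG38 averaged 68.8 ± 18.8 CPM at 240 min, against 28.1 ± 18.2 CPM at 0 min. The 240 min libraries of ATG38 did not overlap with those at 0 min, and it was called at that time (log2 fold change 1.29 ± 0.42, SE, edgeR adjusted p = 0.0305).

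Atg9 is the membrane protein whose vesicles seed the autophagosome, and ATG9 was called over time and at 5, 30 and 240 min. It had 16.3, 14.2 and 13.8 CPM at 0 min, 29.98, 28.7 and 34.2 CPM at 5 min, 30.5, 26.5 and 33.1 CPM at 10 min and 36.1, 34.7 and 26.9 CPM at 30 min. Later, it had 35.1, 31.5 and 34.4 CPM at 60 min, 27.6, 14.1 and 26.6 CPM at 120 min, 22.8, 28.6 and 28.9 CPM at 180 min and 29.5, 30.3 and 36.3 CPM at 240 min. The step came within 5 min in all courses, and the only library under nitrogen inside the 0 min range was course 2 at 120 min. The log2 fold change was 1.07 ± 0.22 at 5 min, 1.14 ± 0.22 at 30 min and 1.12 ± 0.22 at 240 min (SE, edgeR adjusted p = 0.00357, 0.000483 and 0.000748). At 5 min the call was lost without course 2 (edgeR adjusted p = 0.146) and without course 3 (adjusted p = 0.255). In these fits 0.0158% and 0.302% of all genes were called higher, and the log2 fold change of ATG9 was 1.11 and 0.96.

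ATG41, which encodes a partner of Atg9 needed for normal autophagy, was the most transient of the called genes. It had 40.5, 25.3 and 20.3 CPM at 0 min, 54.96, 20.6 and 35.2 CPM at 5 min, 82.4, 65.6 and 83.1 CPM at 10 min and 41.6, 50.3 and 34.9 CPM at 30 min. From 60 min on it had 55.9, 51.2 and 52.6 CPM at 60 min, 31.6, 37.4 and 28.6 CPM at 120 min, 38.4, 36.96 and 29.1 CPM at 180 min and 34.5, 17.4 and 18.5 CPM at 240 min. The 3 courses peaked together at 10 min, above all libraries at 0 min, and at 240 min each course was below its own 0 min value. For ATG41 the log2 fold change was 1.423 ± 0.32 at 10 min (SE, edgeR adjusted p = 0.00321) and -0.29 ± 0.32 at 240 min (adjusted p = 0.619), and over time its adjusted p was 0.00446. At 240 against 30 min it was -0.85 ± 0.32 (edgeR adjusted p = 0.107).

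The other 4 genes of this group were not called over time, in a fit that called 9.31% of all genes upward and 10.5% downward. ATG2, whose product moves lipids into the growing membrane, averaged 47.1 ± 13.96 CPM at 30 min and 33.2 ± 11.1 CPM at 240 min, against 23.8 ± 3.88 CPM at 0 min (SD, n = 3 each), and it was called with the block (edgeR adjusted p = 0.00108, against 0.645 without). ATG18, its phosphoinositide-binding partner, averaged 51.1 ± 19.6 CPM at 240 min and 38.4 ± 12.3 CPM at 0 min, with every course 1 library below every library of courses 2 and 3. ATG23 and ATG27 act in the traffic of Atg9. ATG23 averaged 27.4 ± 3.93 CPM at 240 min and 20.6 ± 1.501 CPM at 0 min. ATG27 averaged 130.2 ± 8.16 CPM at 240 min and 162 ± 15.8 CPM at 0 min, and was below its own 0 min value in every course at 30, 60 and 240 min. The log2 fold change of ATG27 at 30 min was -0.37 ± 0.20 (SE, edgeR adjusted p = 0.208).

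**Figure D3:**
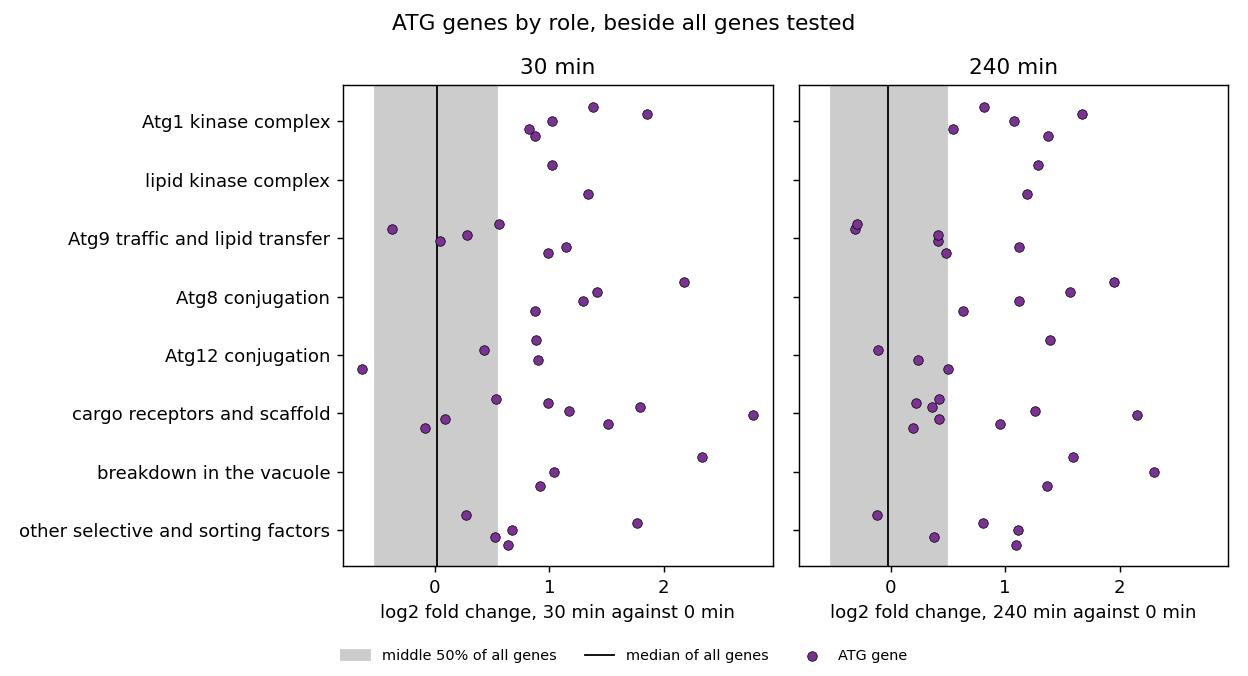
Log2 fold change against 0 min at 30 min (left) and 240 min (right), 1 point for each of the 37 ATG genes by role, with the median (line) and the middle 50% (grey band) of all 6262 genes tested. The 4 Atg8 conjugation genes and the 3 vacuolar breakdown genes lie to the right of the band at both times, while ATG5 of the Atg12 system lies to the left of it at 30 min.

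Of the 8 genes for cargo receptors and for the scaffold of selective autophagy, ATG19, ATG34 and ATG36 were called over time. Over all genes 9.31% were called upward. ATG19 encodes the Cvt receptor that brings aminopeptidase I and alpha-mannosidase to the vacuole. It had 34.7, 30.6 and 20.1 CPM at 0 min, 49.1, 36.8 and 38.98 CPM at 5 min, 60.5, 68.4 and 62.7 CPM at 10 min and 96.1, 83.00 and 64 CPM at 30 min. The later libraries had 65.95, 44.9 and 63.4 CPM at 60 min, 34.6, 38.5 and 52.6 CPM at 120 min, 58.4, 54.9 and 39.5 CPM at 180 min and 55.5, 53.5 and 56.1 CPM at 240 min. Libraries lay above all those at 0 min at each time but 120 min, where course 1 was back at its 0 min level, and each course was highest at 30 min, course 3 by a small margin. ATG19 had a log2 fold change of 1.51 ± 0.23 at 30 min (SE, edgeR adjusted p = 4.73e-05) and 0.95 ± 0.23 at 240 min (adjusted p = 0.00414), just outside the 2-fold minimum at the later time. The call on ATG19 over time was lost without course 2 (edgeR adjusted p = 0.209), where 2.33% of all genes were called upward. With the course as a block its edgeR adjusted p over time was 8.49e-05.

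ATG34 encodes the receptor related to Atg19 that brings alpha-mannosidase to the vacuole in starved cells. It had 2.73, 5.93 and 5.201 CPM at 0 min, 5.77, 14.5 and 17.4 CPM at 5 min, 11.3, 14.1 and 26.8 CPM at 10 min and 22.5, 29.5 and 43.1 CPM at 30 min. After 30 min it had 17.9, 19.5 and 32.9 CPM at 60 min, 13.8, 14.5 and 27.7 CPM at 120 min, 9.51, 21.4 and 17.3 CPM at 180 min and 15.4, 19.7 and 26.4 CPM at 240 min. All courses were highest at 30 min, and from 10 min on no library overlapped with those at 0 min. Its log2 fold change of 2.78 ± 0.49 at 30 min was the largest of any member at any time (SE, edgeR adjusted p = 0.000238), and at 240 min it was 2.15 ± 0.48 (adjusted p = 0.00257). Divided by coding length, ATG34 had 25.6 ± 8.47 CPM per kb at 30 min and 3.73 ± 1.35 at 0 min, and its neighbour ATG19 had 64.9 ± 12.9 at 30 min and 22.8 ± 6.004 at 0 min (SD, n = 3 each). ATG34 was thus the second lowest member per length at 0 min, and both neighbours were higher at 30 min than at 0 min in every course.

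ATG36 encodes the receptor for peroxisomes. It had 22.7, 10.9 and 15.7 CPM at 0 min, 18.9, 23.3 and 22.1 CPM at 5 min, 19.4, 33.6 and 36.1 CPM at 10 min and 28.9, 47.9 and 34.6 CPM at 30 min. Later, it had 35.9, 42.9 and 49.4 CPM at 60 min, 32.7, 39.99 and 39.1 CPM at 120 min, 38.4, 40.5 and 32.5 CPM at 180 min and 33.7, 35.8 and 48.98 CPM at 240 min. From 30 min on no library overlapped with those at 0 min, while at 5 and 10 min course 1 was below its own 0 min value. ATG36 had a log2 fold change of 1.17 ± 0.27 at 30 min and 1.26 ± 0.27 at 240 min (SE, edgeR adjusted p = 0.00289 and 0.00189), with its largest value, 1.37, at 60 min. The call on ATG36 over time was lost without course 2 (edgeR adjusted p = 0.351) and without course 3 (adjusted p = 0.369). In these fits 2.33% and 3.32% of all genes were called upward, and the log2 fold change of ATG36 at 30 min was 0.74 and 1.23. With the course as a block its edgeR adjusted p over time was 0.000876.

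ATG32, the receptor for mitochondria on the outer mitochondrial membrane, was not called in any comparison. It had 13.8, 12.95 and 14.7 CPM at 0 min, 14.5, 19.5 and 21.3 CPM at 5 min, 11.3, 14.5 and 18.6 CPM at 10 min and 13.5, 13.3 and 17.3 CPM at 30 min. From 60 min on it had 19.9, 15.04 and 16.4 CPM at 60 min, 13.3, 26.9 and 21.6 CPM at 120 min, 19.4, 18.5 and 19.7 CPM at 180 min and 18.1, 20.8 and 16.8 CPM at 240 min. The 24 libraries lay within a narrow range, although those at 60, 180 and 240 min did not overlap with 0 min. ATG32 had a log2 fold change of 0.08 ± 0.26 at 30 min and 0.42 ± 0.26 at 240 min (SE, edgeR adjusted p over time = 0.611). ATG11 encodes the scaffold that links receptors to the autophagy machinery. It had 37.95, 31.7 and 49.6 CPM at 0 min, 31.6, 35.3 and 30.7 CPM at 5 min, 23.7, 26.2 and 31.5 CPM at 10 min and 36.8, 37.5 and 37.8 CPM at 30 min. The later libraries had 36.9, 57.4 and 42.7 CPM at 60 min, 33.3, 40.3 and 45.97 CPM at 120 min, 32.1, 46.7 and 51.3 CPM at 180 min and 36.6, 43.1 and 57.2 CPM at 240 min. Only the 10 min libraries stood apart from 0 min, below it, and the log2 fold change there was -0.55 ± 0.23 (SE, edgeR adjusted p = 0.109). At 30 min it was -0.09 ± 0.22, and its sign turned under total-count scaling and without course 3.

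ATG40, a receptor for the cortical endoplasmic reticulum, had 14.5, 4.99 and 3.76 CPM at 0 min, 15.3, 6.56 and 9.58 CPM at 5 min, 8.81, 5.76 and 5.49 CPM at 10 min and 16.5, 8.75 and 20.9 CPM at 30 min. After 30 min it had 21.8, 8.91 and 10.1 CPM at 60 min, 9.47, 7.57 and 5.37 CPM at 120 min, 8.18, 5.05 and 3.799 CPM at 180 min and 15.8, 9.13 and 2.25 CPM at 240 min. Courses spread widely at each time and overlapped with 0 min throughout. The edgeR adjusted p of ATG40 over time was 0.611 without and 0.0422 with the block, and the sign of its log2 fold change at 240 min (0.22 ± 0.63, SE) turned without course 2. ATG39, a receptor for the nuclear envelope and endoplasmic reticulum, had the lowest level of the members per coding length at 0 min. It had 6.22, 3.66 and 12.6 CPM at 5 min, 11.7, 3.79 and 4.77 at 30 min and 4.41, 2.39 and 0.749 at 240 min, against 3.48, 0.7803 and 1.54 CPM at 0 min. Libraries at 5, 10, 30 and 60 min lay above those at 0 min, and ATG39 was called over time with the block (edgeR adjusted p = 0.0192) and not without (adjusted p = 0.307). ATG45, which encodes a receptor for glycogen, averaged 19.7 ± 2.07 CPM at 30 min and 13.6 ± 2.93 CPM at 0 min (SD, n = 3 each), was above its own 0 min value in every course at each time, and was not called (log2 fold change 0.53 ± 0.25, SE, edgeR adjusted p over time = 0.425).

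The 3 genes that act inside the vacuole, ATG15, ATG22 and ATG42, were all called higher at 240 min, beside 7.14% of all genes. ATG22 and ATG42 were called over time, beside 9.31% of all genes upward. ATG22 encodes a vacuolar membrane protein for the export of amino acids. It had 35.4, 72.3 and 83.7 CPM at 0 min, 64.2, 88.5 and 92.6 CPM at 5 min, 61.3, 68.9 and 89.4 CPM at 10 min and 118, 109 and 165 CPM at 30 min. Later, it had 156, 185 and 142 CPM at 60 min, 247, 257 and 249.9 CPM at 120 min, 265, 246 and 313 CPM at 180 min and 293, 316 and 335 CPM at 240 min. Its level was lower at 10 than at 5 min in each course and above both from 30 min on, with no overlap with 0 min from 30 min on and the highest value of each course at 240 min. The log2 fold change of ATG22 was 1.04 ± 0.25 at 30 min, 1.98 ± 0.26 at 120 min and 2.30 ± 0.26 at 240 min (SE, edgeR adjusted p = 0.00393, 3.94e-05 and 3.01e-06). It was the only member called over time in each fit that left out a course (edgeR adjusted p = 1.12e-07, 0.01403 and 0.00228 without courses 1, 2 and 3). At 30 min ATG22 was not called without course 1, where it was under 2-fold, or without course 2 (edgeR adjusted p = 0.0665).

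ATG42 encodes a vacuolar carboxypeptidase related to carboxypeptidase Y. It had 42.5, 56.2 and 64.9 CPM at 0 min, 104, 202 and 274 CPM at 5 min, 144, 259.9 and 401 CPM at 10 min and 191, 322 and 311 CPM at 30 min. From 60 min on it had 105, 210.1 and 189.7 CPM at 60 min, 88.7, 191 and 217 CPM at 120 min, 86.3, 192 and 204 CPM at 180 min and 107, 205 and 182 CPM at 240 min. All libraries under nitrogen lay above those at 0 min, courses 2 and 3 stood above course 1 at each time, and the highest value came at 10 min in course 3 and at 30 min in the other two. The log2 fold change of ATG42 was 1.83 ± 0.46 at 5 min, 2.33 ± 0.46 at 30 min and 1.59 ± 0.45 at 240 min (SE, edgeR adjusted p = 0.0141, 0.000708 and 0.01397). Over time its adjusted p was 0.0227 without and 1.26e-08 with the course as a block, and it was 0.688 without course 2 and 0.453 without course 3. In the fits without course 2 or course 3, 2.33% and 3.32% of all genes were called upward over time. ATG15, the lipase that opens the inner membrane of the autophagosome, averaged 59.8 ± 6.21 CPM at 240 min, against 23.2 ± 6.35 CPM at 0 min (SD, n = 3 each). It did not overlap with 0 min there, and its log2 fold change was 1.36 ± 0.41 (SE, edgeR adjusted p = 0.01905).

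**Figure D4:**
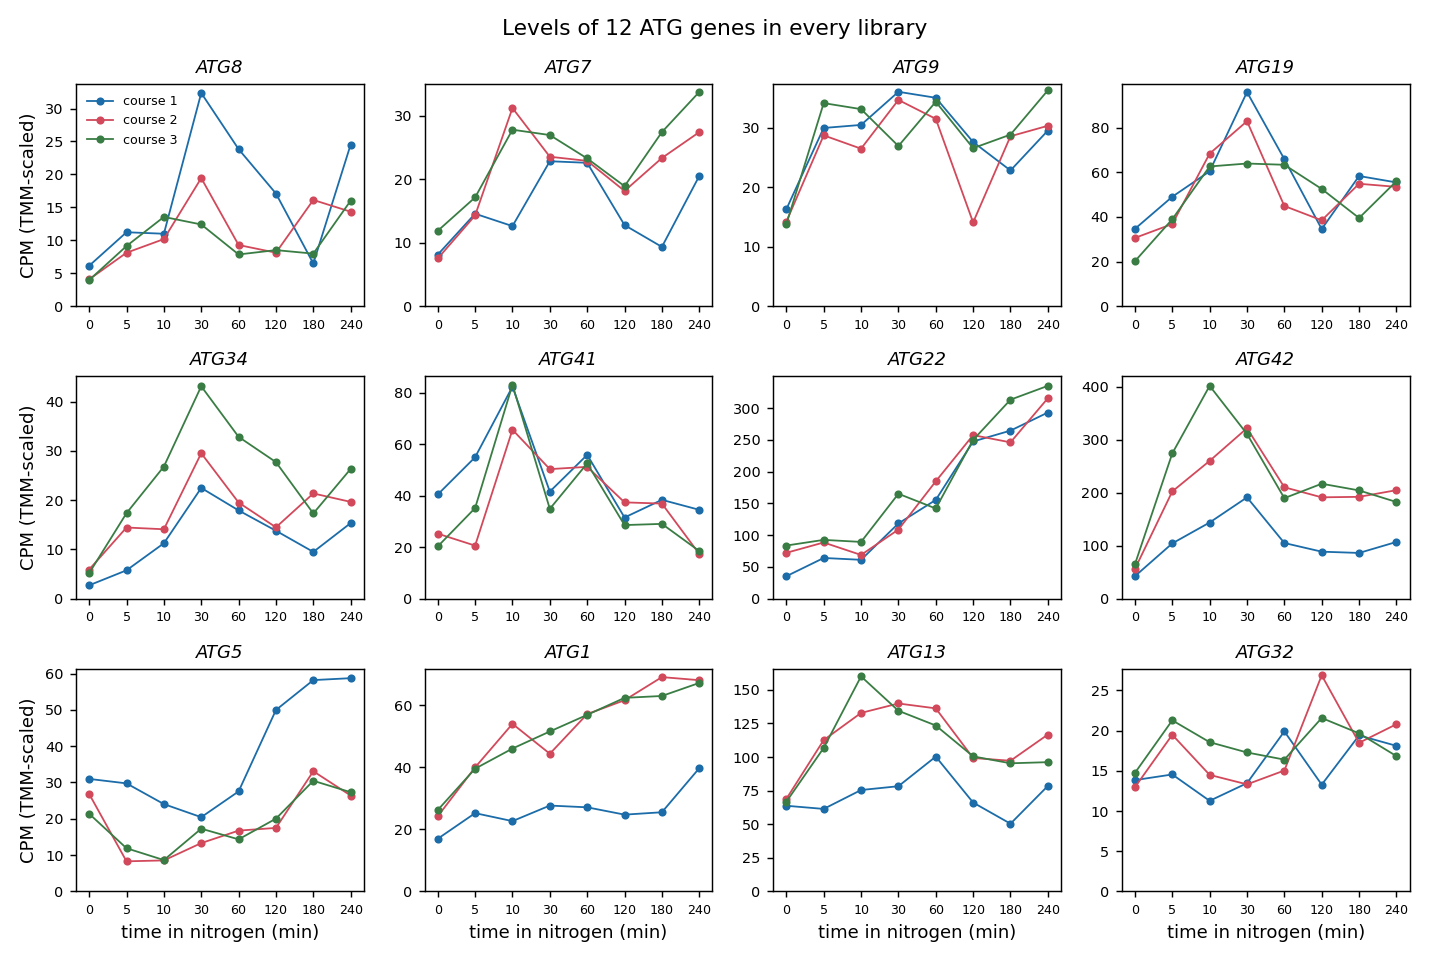
TMM-scaled CPM (vertical axis, from 0) of 12 ATG genes in every library at the 8 times (min in nitrogen, evenly spaced), with 1 line for each of the 3 courses. ATG22 reaches 293, 316 and 335 CPM at 240 min, ATG41 peaks at 10 min and ATG34 at 30 min in all courses, and ATG5 dips before it rises above its 0 min values at 180 min.

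Among the remaining genes ATG20 and ATG33 were called over time, beside 9.31% of all genes upward. ATG33 encodes a mitochondrial outer membrane protein needed for efficient mitophagy. It had 16.95, 6.87 and 17.5 CPM at 0 min, 21.4, 15.2 and 25.8 CPM at 5 min, 34.4, 23.1 and 34.1 CPM at 10 min and 52.3, 54.04 and 35.2 CPM at 30 min. The later libraries had 26.8, 20.5 and 31.5 CPM at 60 min, 25.9, 25.9 and 23.2 CPM at 120 min, 29.9, 36.00 and 18.3 CPM at 180 min and 33.7, 20.5 and 18.5 CPM at 240 min. All courses were higher at 30 min than at any other time, with the 30 min libraries above each library at 0 and 240 min. ATG33 had a log2 fold change of 1.77 ± 0.35 at 30 min (SE, edgeR adjusted p = 0.000661) and 0.81 ± 0.34 at 240 min (adjusted p = 0.101), and -0.96 ± 0.34 at 240 against 30 min (adjusted p = 0.0876). ATG32 and ATG33, both linked to mitophagy, thus had log2 fold changes of 0.08 and 1.77 at 30 min, and the difference between the genes was not tested.

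ATG20, a sorting nexin, averaged 70.7 ± 8.63 CPM at 240 min, against 33.1 ± 7.47 CPM at 0 min (SD, n = 3 each), and every library under nitrogen lay above the 0 min libraries. Its log2 fold change at 240 min was 1.10 ± 0.24 (SE, edgeR adjusted p = 0.00187). ATG26, a sterol glucosyltransferase, averaged 144 ± 33.7 CPM at 240 min, against 66.7 ± 20.4 CPM at 0 min. It was called at 240 min (log2 fold change 1.11 ± 0.27, SE, edgeR adjusted p = 0.005003) and not over time (adjusted p = 0.101, against 6.75e-05 with the block). ATG21, a phosphoinositide-binding protein that helps to place the Atg8 machinery, averaged 48.4 ± 10.4 CPM at 30 min and 33.7 ± 6.14 CPM at 0 min, with an edgeR adjusted p over time of 0.512. ATG44, whose product acts in the fission of mitochondria, averaged 71.7 ± 61.9 CPM at 240 min and 77.9 ± 38.6 CPM at 0 min, with every course 1 library above every library of courses 2 and 3.

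Levels per length, given as mean CPM per kb of coding sequence, spanned a wide range among the members. At 0 min the order was led by ATG44 (351 ± 174), ATG27 (199 ± 19.4) and ATG41 (69.8 ± 25.6), and ended with ATG7 (4.83 ± 1.25), ATG34 (3.73 ± 1.35) and ATG39 (1.62 ± 1.16, SD, n = 3 each). ATG44 and ATG27 overlapped within their spread, and so did ATG7 and ATG34. ATG22 was at rank 5 of 37 at 0 min and at rank 2 at 240 min, with 198 ± 13.2 CPM per kb at 240 min against 40.2 ± 15.9 at 0 min. ATG8 was at rank 23 at 0 min, rank 10 at 30 min and rank 7 at 240 min, with 51.7 ± 15.5 CPM per kb at 240 min against 13.3 ± 3.46 at 0 min. Besides ATG16 and ATG18, which were lower in each course 1 library than in any of courses 2 and 3, ATG10 and ATG44 were higher in each course 1 library, and their part in the results was not tested beyond the fits with the block and without a course.

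Other genes around the pathway were taken from lists chosen by role, with earlier results of these data known. Of these genes 82 were tested. Over time 11 were called with an upward and 1 with a downward largest change, beside 9.31% and 10.5% of all genes. With the course as a block 14 were called upward and 1 downward (14.2% and 15.0% of all genes), adding PRC1, GAT1 and MSN4. Without course 1 the counts were 18 and 2 (18.3% and 16.9%), and upward calls fell to 2 without course 2 (2.33%) and to 3 without course 3 (3.32%), with 0 downward. The calls that were kept were those on AMS1 and HSV2 in both of these fits and on ATH1 without course 3, and the other calls were lost in each. The 12 vacuolar hydrolases and Cvt cargo proteins had 6 calls upward and 0 downward (edgeR, with 7 upward and 0 downward at an unadjusted p under 0.05, and 6 and 0 by DESeq2). The block fit called 7 upward, adding PRC1, carboxypeptidase Y (edgeR adjusted p = 7.17e-05, against 0.221 without the block). Upward calls numbered 7 without course 1, 1 without course 2 and 2 without course 3. AMS1, the vacuolar alpha-mannosidase that Atg19 and Atg34 carry, had 126, 237 and 207 CPM at 240 min, against 13.9, 6.09 and 8.28 CPM at 0 min, with no overlap and a log2 fold change of 4.32 ± 0.41 (SE, edgeR adjusted p = 5.29e-07). APE1, aminopeptidase I and the main cargo of Atg19, had 182, 296 and 269 CPM at 30 min, against 50.3, 23.9 and 17.5 CPM at 0 min, with a log2 fold change of 3.02 ± 0.44 (edgeR adjusted p = 3.12e-05). ATH1, an acid trehalase, and PRB1, vacuolar protease B, had their largest log2 fold changes at 30 min (2.46 ± 0.25, SE) and 240 min (2.45 ± 0.45).

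Over time the main edgeR fit called 9.31% of all genes upward and 10.5% downward. Of 15 partners in lipid kinase function and membrane traffic 1 was called, HSV2, a relative of ATG18 and ATG21. Its log2 fold change was 1.79 ± 0.17 at 240 min (SE, edgeR adjusted p over time = 1.97e-06). Of 13 genes of vacuolar fusion 1 was called, VAM7, a vacuolar SNARE protein (1.23 ± 0.27 at 240 min, adjusted p over time = 0.0364). Among 25 genes of nutrient signalling above the pathway, 3 were called upward and 1 downward. Under total-count scaling 5 were called upward and 0 downward, beside 12.3% and 7.73% of all genes. TPK2 and TPK3 encode catalytic subunits of protein kinase A, which restrains autophagy in rich medium. The largest log2 fold change was 1.85 ± 0.43 at 10 min for TPK2 and -1.33 ± 0.29 at 30 min for TPK3 (SE, edgeR adjusted p over time = 0.0395 and 0.01904). LST8, a subunit of the TOR complexes, had 1.07 ± 0.20 at 10 min (adjusted p over time = 0.0144). Of 17 tested genes for transcriptional regulators of ATG genes, 0 were called over time by edgeR or DESeq2, with 0 upward and 1 downward at an unadjusted p under 0.05. The block fit called 2 of them upward, MSN4, a stress response activator (largest log2 fold change 1.43 ± 0.71 at 30 min, SE, edgeR adjusted p over time = 0.0121 with the block and 0.982 without), and GAT1, a GATA activator of nitrogen genes (1.14 ± 0.48 at 5 min, adjusted p = 0.0147 with and 0.849 without). The block fit called 14.2% of all genes upward. Without course 1 the edgeR fit also called 2 regulators upward, beside 18.3% of all genes.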

How the data were processed

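Polyadenylated RNA of 24 yeast libraries, 8 times in each of 3 courses, was analysed from deposited read counts. The deposited files hold raw counts per annotated feature, which the authors obtained with HTSeq after trimming and TopHat2 alignment to build R64. Versions, the strand setting and whether courses 2 and 3 were handled like course 1 are not given in the sources used here. Reads that map to several places do not enter such counts by default, and ambiguous reads made up 0.27% to 0.35% in courses 2 and 3. Names, positions and promoters came from the RefSeq annotation of R64, which matched 6048 features. The other 1092 features have no position here, so overlaps with them were not checked.

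Counts were fitted with edgeR 4.0.16 (TMM factors, filterByExpr by time, 6262 genes, time as a factor, quasi-likelihood F-test) in R 4.3.3, on the whole table and with Benjamini-Hochberg adjustment over all genes kept. Calls required a fold change of at least 2 with its adjusted p under 0.05. edgeR estimated a biological coefficient of variation of 0.59 (16 residual and 2.98 prior degrees of freedom). The SE of a log2 fold change was derived from the F-test, as its absolute value divided by the square root of F. Ratios within a course used CPM plus 0.5. Residuals of the 28 library pairs within a course correlated at 0.772 to 0.922 (course 1), 0.591 to 0.767 (course 2) and 0.477 to 0.772 (course 3). The replicate numbers come from the labels. Libraries of a course thus belong together, but the main edgeR fit held no course term, and its p values ignore this pairing. Calls of the fit with the course as a block are given where they differ. The alternatives tried were a course block, leaving out 1 course at a time, DESeq2 1.42.0, scaling by RLE factors or by total counts, omitting the filter or the fold minimum, and the study's DESeq2 quadratic in time on course 1 (its second method, an autocorrelation test, was not run here). The steps were run on simulated counts that held no difference between courses. The changes planted there were well above the 2-fold minimum. That run therefore says nothing on the course structure or on changes near the minimum.

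Values in every library are given for ATG1, ATG8, ATG9, ATG11, ATG13, ATG19, ATG32 and ATG40 and for the 12 members called over time with the smallest p, and for ATG5, which was added after its values were seen, and of the other lists up to 4 called genes with the largest change are named, except 1 that is not reported here. Members and lists were chosen with earlier results of these data known.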

Additional observations from a re-analysis of the deposited data

How the results depend on the processing

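The number of ATG genes called depended most on the courses. Over time, 15 were called. Leaving out each course in turn gave 1 to 25, the course as a block gave 25, and the study's DESeq2 model on course 1 alone gave 4. At 5 min against 0 min 2 were called higher. The count was 4 with DESeq2, 4 with total-count scaling (3.70% of all genes) and 4 with no fold minimum. It was 6 with the course as a block and 0 to 7 with a course left out, and the count called lower was 0 to 1. At 30 min (13 called higher) leaving out a course gave 6 to 20. At 120 min (5 called higher) the count was 10 with DESeq2, 11 with total-count scaling (7.17% of all genes) and 11 with the course as a block. It was 8 with no fold minimum and 1 to 17 with a course left out. The share of all genes with no fold minimum was not counted at 5 or 120 min. At 240 min (15 called higher) leaving out a course gave 2 to 19. For 240 against 30 min, 2 were called higher with the block, 0 to 1 with a course left out, and 0 to 2 were called lower. The log2 fold change of ATG11 at 30 min was 0.143 under total-count scaling and -0.216 to 0.140 with a course left out, against -0.09 in the edgeR fit on all courses. That of ATG40 at 240 min was -0.006 to 0.413 with a course left out. The causes of these shifts were not tested. The fits on 2 courses had fewer libraries and, like the main fit, no course term. Over time they called 35.1% of all genes without course 1, 5.38% without course 2 and 7.55% without course 3. With all courses 19.8% were called. Of 384 values of single genes under the alternatives, 329 kept their direction and their side of the threshold, 40 lost a call, 12 gained one and 3 changed sign. This tally does not cover every call on the members. Of the 15 members called over time, 1 stayed called without course 2 and 2 without course 3. The block changed no call on an ATG gene in these 6 comparisons other than those given above. ATG10, ATG39 and, in course 1, ATG16 had so few counts that only large changes of them could be detected.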
